A study of Mus musculus with 6 samples.

Results

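Fabp7 and Smpdl3a are protein-coding genes that follow each other on mouse chromosome 10. They were taken from the deposited expression table by their symbols, and they are 2 of its 9720 genes. Both were chosen by their higher FPKM values in knockout than in control cones, so their values in that comparison are given as a description, with no test. RNA came from cone photoreceptors of adult mice, marked with eGFP and sorted by FACS after the neural retina was dissociated. The knockout group (HRGPcre;Bmal1f/f;Z/EG, 3 libraries) carried floxed Bmal1 on both alleles. The control group (HRGPcre;Bmal1f/+;Z/EG, 3 libraries) carried floxed Bmal1 on a single allele, so that a control cone that has recombined is heterozygous. Both groups carried HRGPcre, a Cre transgene driven by a human red/green pigment gene promoter that acts in cones, and the Z/EG reporter, which gives eGFP after Cre has acted. Both were on C57BL/6 with a mixed background, were housed under a light cycle of 12 h on and 12 h off, and are labelled as 60 to 80 days and also as 2 to 6 months old. The sources used here do not give the time of day of collection, nor whether a library came from a single animal or a pool, so the spread between libraries may be in part technical.

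FABP7 is a small cytoplasmic protein of the fatty acid-binding family that carries long-chain polyunsaturated fatty acids. It is a classical marker of radial glia and astrocytes and is made by Müller glia in the retina, and in mouse brain its mRNA follows a daily rhythm that the REV-ERB proteins repress. SMPDL3A is a secreted phosphodiesterase related to acid sphingomyelinase, and in human macrophages its gene is induced by the liver X receptors (LXR). The REV-ERB receptors, encoded by Nr1d1 and Nr1d2, are themselves transcribed under the control of BMAL1 with CLOCK. They bind the same DNA elements as the activating ROR receptors and silence genes through the corepressor NCOR1 and the histone deacetylase HDAC3.

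On GRCm38, Fabp7 (ENSMUSG00000019874.11) lies on the plus strand of chromosome 10 from 57784881 to 57788450. Smpdl3a (ENSMUSG00000019872.13) lies on the same strand from 57794335 to 57811830, 5884 bases after the end of Fabp7. GENCODE vM21 annotates 2 transcripts of Fabp7, of 804 and 880 spliced bases, and 3 of Smpdl3a, the longest of 1961 spliced bases in 8 exons. Exons of neither gene overlap an exon of any other annotated gene. The sequence before Fabp7 is shown because it holds the hexamer AGGTCA after a T, which is the core of the element that REV-ERB and ROR proteins read. The full element also has bases rich in A and T before this core. It covers the plus strand of chr10:57784673-57784880 (GRCm38.p6, RefSeq promoter table, in which 1 of the 2 genes matched), 208 bases that end before both the GENCODE and the RefSeq start of the gene. Capitals mark the match, which reads TAGGTCA on the minus strand.
Fabp7: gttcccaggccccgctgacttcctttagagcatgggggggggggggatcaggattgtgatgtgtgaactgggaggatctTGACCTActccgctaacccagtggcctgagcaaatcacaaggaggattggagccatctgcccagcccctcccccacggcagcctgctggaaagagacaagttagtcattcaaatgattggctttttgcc
The match ends 123 bases before the GENCODE start and 165 bases before the RefSeq start. TAGGTCA was found on either strand in 1.87% of the 32851 promoter windows of that length, and AGGTCA, which TAGGTCA contains, in 11.9%. The full element, a search added after the window was seen and run by consensus on both strands, had no match in the Fabp7 window and was found in 0.271% of windows. The E-box letters CACGTG (4.59% of windows), the D-box letters TTATGTAA (0.7%) and the direct repeat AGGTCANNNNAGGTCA read by LXR (0.0122%) had no match in the Fabp7 window. These are matches of letters and were not tested as binding sites.

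Fabp7 was an abundant transcript in the sorted cones, and its level was higher in every knockout library than in every control library. It read 77.2, 63.8 and 76.2 FPKM in knockout libraries 1, 2 and 3, against 21.9, 33.1 and 37.0 FPKM in control libraries 1, 2 and 3. FPKM count fragments for each kilobase of a transcript and are scaled by library size, so levels of genes of unlike length can be set side by side. The groups did not overlap, and the lowest knockout library stood 1.72-fold above the highest control library. The mean was 72.4 ± 7.49 FPKM in knockout cones and 30.7 ± 7.86 FPKM in control cones (SD, n = 3 each), a ratio of means of 2.36. On the scale of log2(FPKM + 1) the difference was 1.24 ± 0.26 (SE), which ranked 17 of 8627 genes tested, counted from the most positive. In knockout libraries Fabp7 was above 98.0% to 98.5% of the genes of the table, and in control libraries above 93.1% to 95.1%.

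Smpdl3a was scarce in both groups and was also higher in every knockout library. It read 2.09, 2.30 and 2.22 FPKM in knockout libraries 1, 2 and 3, against 0.711, 0.274 and 0.889 FPKM in control libraries 1, 2 and 3. The knockout values lay within 1.10-fold of each other, whereas the control values spanned 3.25-fold, with control 2 the lowest. The mean was 2.201 ± 0.107 FPKM in knockout cones and 0.625 ± 0.317 FPKM in control cones (SD, n = 3 each), a ratio of means of 3.52. The log2 difference was 0.9977 ± 0.22 (SE) on the log2(FPKM + 1) scale, rank 28 of 8627. That scale understates changes of genes under 1 FPKM, and with 0.1 in place of 1 as the added constant the difference was 1.78. In knockout libraries Smpdl3a was above 32.3% to 36.5% of the genes of the table, and in control libraries above 2.53% to 8.69%.

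**Figure D1:**
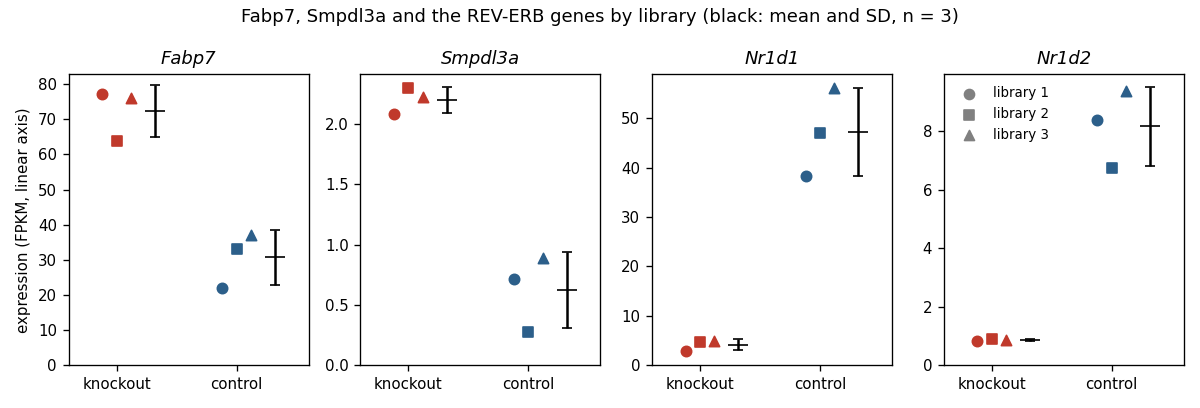
Expression in FPKM (linear axis) of Fabp7, Smpdl3a, Nr1d1 and Nr1d2 in the 3 knockout (red) and 3 control (blue) libraries, with marker shape for the library number and black bars for mean and SD. Fabp7 and Smpdl3a were higher, and Nr1d1 and Nr1d2 lower, in every knockout library than in every control library.

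The table itself bears on the low gene of the pair. Each of its genes exceeds 1 FPKM in at least 1 library, and the fit kept those that averaged 1 FPKM or more across all 6 libraries. All 3 control values of Smpdl3a were under 1 FPKM, so the gene entered the table and the fit through its knockout values. Only 16 of the genes tested had all control libraries under 1 FPKM, and in 10 of these (62.5%) all knockout libraries lay above all control libraries. Fabp7 passed both conditions in each group.

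Over the whole table, 9 of 8627 genes (0.104%) passed an adjusted p of 0.05 in limma's fit, and 474 had an unadjusted p under 0.05. No p is given for Fabp7 or Smpdl3a, because these values chose them. Of the genes tested, 3.52% had all knockout libraries above all control libraries and 5.87% had them below. Both Fabp7 and Smpdl3a are among the 3.52%, a property for which they were chosen. With 0.104% of all genes called, a short gene list with no call is near the background. In bulk RNA, fewer cells of a type and less RNA per cell cannot be told apart.

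**Figure D2:**
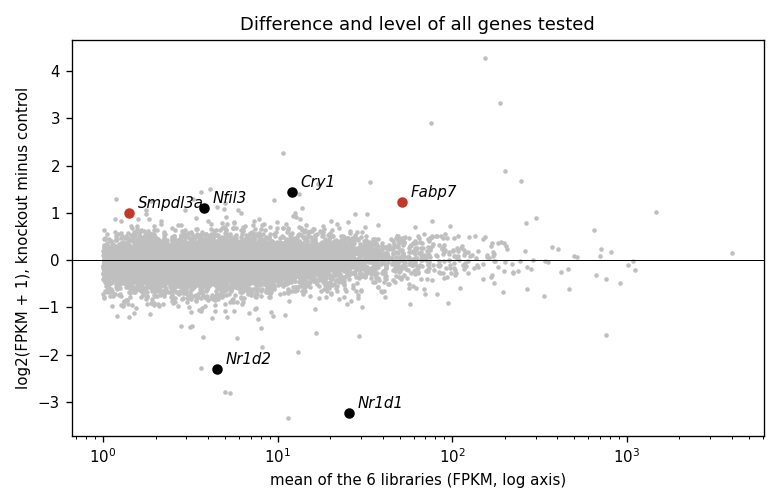
Mean of the 6 libraries (FPKM, log axis) against the difference in log2(FPKM + 1), knockout minus control, for the 8627 genes tested, with Fabp7 and Smpdl3a in red and 4 clock genes in black. Fabp7, at 1.24, lies at a higher level than Smpdl3a, Nfil3 and Cry1, which have differences of like size.

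Libraries differed in ways that touch these values. FPKM sums ranged from 102059 to 106900 in knockout libraries and from 84995 to 128773 in control libraries, and depth is unknown because FPKM keep no read total. Control 1 had the lowest mean correlation with the rest of its group across genes (r = 0.91), and it also held the lowest control value of Fabp7. Without control 1 the log2 difference of Fabp7 was 1.02 and that of Smpdl3a 1.04. Gm17364, a gene model, made up 10.03% of the FPKM sum of control 3. After all libraries were scaled to the same sum, the log2 differences were 1.26 for Fabp7 and 1.01 for Smpdl3a. Arntl, the gene of BMAL1 and the deleted gene, measured 3.05 ± 0.66 FPKM in knockout cones and 2.96 ± 0.34 FPKM in control cones. Its deposited value covers the whole gene, so it does not check the genotype labels.

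The level of Fabp7 relative to its neighbour differed between libraries. The ratio of Fabp7 to Smpdl3a was 37.0, 27.8 and 34.3 in knockout libraries 1, 2 and 3, against 30.8, 120.9 and 41.7 in control libraries 1, 2 and 3. Control 2, with the lowest Smpdl3a value, gave the highest ratio, and the other control libraries lay close to the knockout libraries. A difference of the pair's size between neighbours was common. The log2 differences of Fabp7 and Smpdl3a were 0.24 apart, and over 928 pairs of consecutive protein-coding genes on 1 strand, both tested and at most 10000 bases apart, the median was 0.22. Few pairs had both genes above control in all knockout libraries, as goes with the 3.52% of single genes that lay above. This was so in 2 of the 928 pairs (0.216%), namely Fabp7 with Smpdl3a and Rora with Ice2, and both genes lay below control in 9 pairs (0.97%). The pair itself is among those counted and was chosen for this, so the count describes the background only.

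The other genes around the pair had knockout and control values that overlapped. GENCODE vM21 places 14 protein-coding genes within 1000000 bases on either side, the pair included, and 8 of these were in the table. None of the 6 others passed in limma (adjusted p from 0.91 to 0.9996, and 0 with an unadjusted p under 0.05), against a background of 0.104% of all genes called. The nearest gene upstream, 43768 bases before Fabp7, is Pkib, which encodes an inhibitor of protein kinase A. It measured 2.02 ± 0.44 FPKM in knockout cones and 3.397 ± 1.54 FPKM in control cones, with a log2 difference of -0.50 (95% interval -1.07 to 0.07). Serinc1, the next one upstream and a gene for a membrane protein of the serine incorporator family, measured 12.7 ± 1.45 FPKM in knockout cones and 10.9 ± 2.45 FPKM in control cones, with an interval from -0.28 to 0.73.

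The nearest gene downstream in the table was Gcc2, 443666 bases after Smpdl3a. Gcc2, which encodes a coiled-coil protein of the trans-Golgi network, measured 10.2 ± 3.04 FPKM in knockout cones and 8.70 ± 1.22 FPKM in control cones (interval -0.36 to 0.72). Lims1, which encodes the focal adhesion protein PINCH1, measured 4.82 ± 1.02 FPKM in knockout cones and 4.56 ± 0.59 FPKM in control cones (interval -0.42 to 0.53). The log2 differences of Hsf2, a heat shock transcription factor gene, and Ranbp2, a nucleoporin gene, were 0.07 and 0.18.

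**Figure D3:**
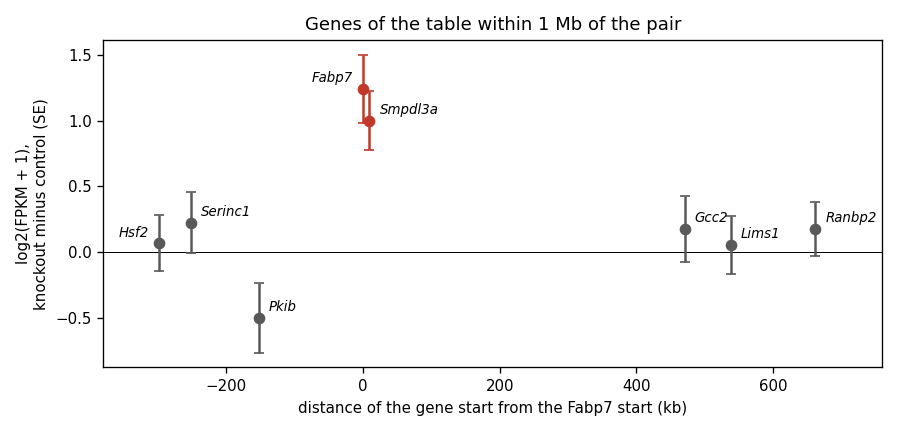
Difference in log2(FPKM + 1), knockout minus control, with its SE, for the 8 genes of the table within 1 Mb of the pair, by distance of the gene start from that of Fabp7 in kb. Fabp7 (1.24) and Smpdl3a (0.9977), which were chosen for their differences, stand above the 6 others, which lie between -0.50 and 0.23.

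Fabp7 shared the highest level of its family with Fabp12, a retina-expressed relative. Of the 15 other genes fixed for the family of intracellular lipid-binding proteins, 4 were in the table, all from a cluster on chromosome 3, and the other 11 were not analysed here. Of the 3 tested, none passed in limma (1 had an unadjusted p under 0.05), and their median log2 difference was 0.47 beside -0.02 for all genes tested. That median was 0.79 without control 1 and 0.23 without control 2. Fabp12 read 53.8, 52.1 and 40.3 FPKM in knockout libraries and 35.3, 40.6 and 48.0 FPKM in control libraries, and the groups overlapped. Its difference of 0.23 on the log2 scale had a 95% interval from -0.29 to 0.75 (adjusted p = 0.99, limma). The ratio of Fabp7 to Fabp12 was 1.44, 1.22 and 1.89 in knockout libraries and 0.620, 0.814 and 0.772 in control libraries, so that Fabp7 was the higher of them in each knockout library and the lower in each control library. This ratio carries the choice of Fabp7 by its higher knockout values.

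Fabp4, the adipocyte and macrophage member of the family, read 9.69, 6.23 and 4.95 FPKM in knockout libraries and 2.40, 2.55 and 4.60 FPKM in control libraries. The groups were apart by a small margin between knockout 3 and control 3, and the difference of 0.92 ± 0.28 (SE) did not pass (adjusted p = 0.59, limma). Pmp2, which encodes a myelin lipid-binding protein, measured 1.61 ± 0.58 FPKM in knockout cones and 1.16 ± 1.51 FPKM in control cones (adjusted p = 0.97, limma), and its exons share 1224 bases with those of the gene model Gm37389 on the same strand. Fabp5, the epidermal member, which is also reported as a REV-ERB target in mouse brain, was below the limit for testing. It read 0.106, 0.263 and 0.397 FPKM in knockout libraries and 0.279, 1.20 and 0.771 FPKM in control libraries, values that overlap and of which only control 2 exceeds 1 FPKM.

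Among relatives of Smpdl3a, 3 of 6 fixed genes were in the table, 3 were tested and none passed in limma (0 with an unadjusted p under 0.05). Their median log2 difference was -0.13. Smpd1, which encodes lysosomal acid sphingomyelinase, measured 11.6 ± 3.20 FPKM in knockout cones and 12.9 ± 3.61 FPKM in control cones, with a log2 difference of -0.13 (95% interval -0.73 to 0.47, adjusted p = 0.9996, limma). Smpd2, which encodes a neutral sphingomyelinase, measured 5.23 ± 0.908 FPKM in knockout cones and 4.79 ± 1.87 FPKM in control cones (interval -0.44 to 0.74), and its exons share 905 bases with those of Mical1 on the other strand. Smpd4, another neutral enzyme gene, measured 3.75 ± 0.49 FPKM in knockout cones and 6.23 ± 2.73 FPKM in control cones (interval -1.14 to 0.06, adjusted p = 0.897, limma). All 3 stood above Smpdl3a in every library. Whether a member differed from its relatives was not tested.

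**Figure D4:**
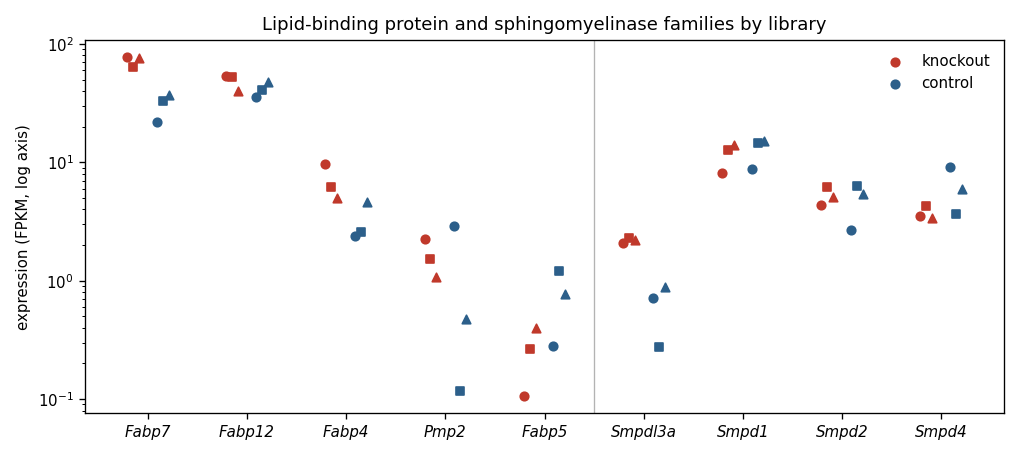
Expression in FPKM (log axis) of the lipid-binding protein genes (left of the line) and sphingomyelinase genes (right) in the 3 knockout (red) and 3 control (blue) libraries, with circles, squares and triangles for libraries 1, 2 and 3. Fabp7, Fabp4 and Smpdl3a are the genes whose knockout libraries all lie above the control libraries, as in 3.52% of all genes tested. Fabp7 and Smpdl3a were chosen for their higher knockout values.

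In the wider lipid pathways around the pair, no gene passed over the whole table in limma, against 0.104% of all genes called. An unadjusted p under 0.05 was found for 1 ceramide gene and 2 fatty acid genes, beside 474 of all 8627 genes tested. Of the 34 genes fixed for ceramide synthesis and breakdown, 24 were in the table and 22 were tested, with a median log2 difference of -0.04 and 9 positive differences. Sphk2, a sphingosine kinase gene, had the smallest p and read 1.97, 1.498 and 2.37 FPKM in knockout libraries and 4.05, 6.05 and 5.26 FPKM in control libraries (log2 difference -1.05, adjusted p = 0.21, limma). The Sphk2 exons share 539 bases with exons of Dbp, a clock output gene on the other strand, and the use of strand in counting is not stated in the labels. The next in p were Sgms1, a sphingomyelin synthase gene (log2 difference 0.52), and Galc, the galactosylceramidase gene (0.44), both with overlapping groups. For fatty acid uptake and activation, 20 of 29 fixed genes were in the table and 19 were tested, with a median of -0.08 and 7 positive differences. Fads2, the delta-6 desaturase gene of polyunsaturated fatty acid synthesis, measured 0.967 ± 0.418 FPKM in knockout cones and 2.08 ± 0.27 FPKM in control cones (adjusted p = 0.76, limma). Elovl5, which encodes an elongase of such fatty acids, measured 6.48 ± 2.21 FPKM in knockout cones and 10.6 ± 2.66 FPKM in control cones (adjusted p = 0.895, limma). Rxra, which encodes the partner of the PPAR and LXR receptors, measured 2.44 ± 1.02 FPKM in knockout cones and 4.12 ± 1.66 FPKM in control cones (adjusted p = 0.90, limma).

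Both REV-ERB genes fell in knockout cones. Nr1d1 read 2.87, 4.62 and 4.91 FPKM in knockout libraries and 38.3, 47.1 and 56.3 FPKM in control libraries (adjusted p = 0.000133, limma). Nr1d2 read 0.822, 0.882 and 0.877 FPKM in knockout libraries and 8.38, 6.73 and 9.40 FPKM in control libraries (adjusted p = 0.0003, limma). These 2 were the ones called among 7 tested receptor and corepressor genes, against 0.058% of all genes called lower, and their fall was known when the list was written. The ratio of Fabp7 to Nr1d1 was 26.96, 13.8 and 15.5 in knockout libraries and 0.572, 0.702 and 0.659 in control libraries. It sets a gene chosen for its rise over a gene known to fall, so the gap follows from that choice. Rora, which encodes an activating ROR receptor, measured 30.6 ± 1.31 FPKM in knockout cones and 23.8 ± 4.40 FPKM in control cones (adjusted p = 0.93, limma). Ncor1 measured 74.6 ± 11.4 FPKM in knockout cones and 62.2 ± 5.92 FPKM in control cones (adjusted p = 0.98, limma). The time of collection is not known, so a difference in it between the groups cannot be told apart from these differences.

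Among other genes reported to be repressed by REV-ERB, Cry1 was the one that passed. Of 16 fixed genes besides Fabp7, 9 were in the table and 8 were tested. Among these 1 rose and none fell in limma, against 0.0464% of all genes called higher, and the median log2 difference was 0.09. The riser was Cry1, a cryptochrome that represses CLOCK and BMAL1, at 18.04 ± 2.87 FPKM in knockout cones and 6.03 ± 1.28 FPKM in control cones (adjusted p = 0.042, limma). The call for Cry1 was lost without control 2 or 3 (adjusted p = 0.15 and 0.199, limma) and without knockout 1, 2 or 3 (0.17, 0.076 and 0.19), and over 16 alternatives its adjusted p ran from 0.0077 to 0.23. Nfil3, a bZIP repressor of D-box genes, measured 5.46 ± 0.57 FPKM in knockout cones and 2.099 ± 0.96 FPKM in control cones, with groups apart (adjusted p = 0.27, limma). Plin2, a lipid droplet coat gene, was apart in the other direction, at 0.685 ± 0.237 FPKM in knockout cones and 2.40 ± 0.27 FPKM in control cones (adjusted p = 0.21, limma). Of all genes tested, 3.52% had groups apart with knockout higher and 5.87% with knockout lower. Arntl and Clock, which are also on this list, had log2 differences of 0.02 and 0.16.

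**Figure D5:**
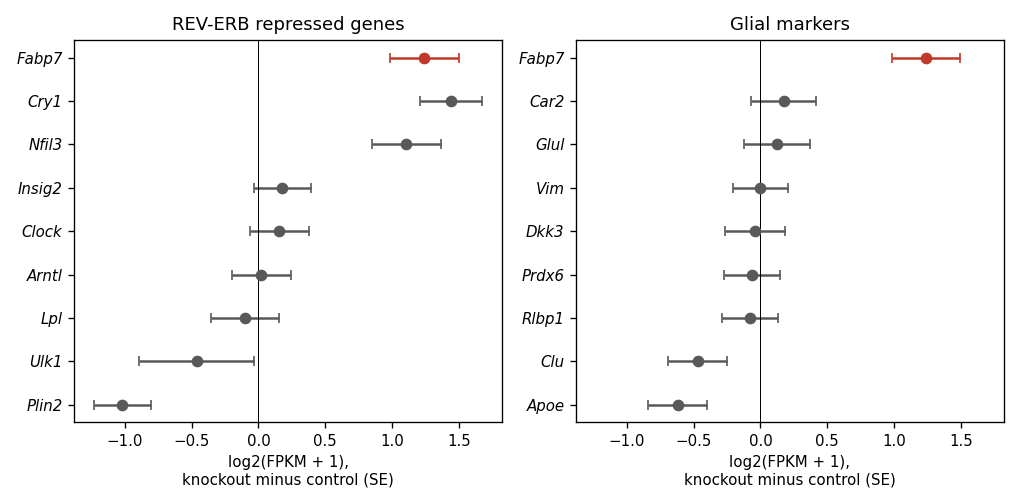
Difference in log2(FPKM + 1), knockout minus control, with its SE, for Fabp7 (red) above the tested genes reported as repressed by REV-ERB (left) and the tested glial markers (right). On the left Cry1 (1.44) and Nfil3 (1.11) lie near Fabp7 (1.24) and Plin2 (-1.02) lies opposite. On the right the markers lie between -0.62 and 0.17, and Fabp7 was chosen for its difference.

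The genes whose profile over the 6 libraries was nearest to that of Fabp7 were Nfil3, Cry1, Opn1sw, Fam229b and Syne1. Nearness was the root mean square difference between log2(FPKM + 1) profiles after each gene's own mean was subtracted, over 8626 genes, and it includes the difference between the groups. It was 0.098 for Nfil3, 0.14 for Cry1, 0.17 for the short-wavelength cone opsin gene Opn1sw, 0.23 for Fam229b and 0.24 for Syne1, which encodes the nuclear envelope protein nesprin-1. Opn1sw read 1774, 1977 and 2091 FPKM in knockout libraries and 735, 1005 and 1202 FPKM in control libraries. Like Fabp7, Nfil3 and Opn1sw were lowest in control 1 and highest in control 3 among the control libraries. Both genes were picked by nearness to Fabp7 over these libraries, so the shared order goes with that choice. The FPKM sums, 84995, 106807 and 128773 in control libraries 1, 2 and 3, had this order too. Smpdl3a came at rank 28, with a distance of 0.33.

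The profiles nearest to Smpdl3a were those of Glp2r (0.12), Slc4a7 (0.12), Hcls1 (0.12), Igf2bp2 (0.15) and Vps37a (0.17), and Fabp7 came at rank 113. Glp2r encodes the receptor for glucagon-like peptide 2, and its exons share 66 bases with those of Gas7 on the other strand. It read 32.2, 31.8 and 32.6 FPKM in knockout libraries and 18.2, 15.4 and 20.8 FPKM in control libraries. Slc4a7, which encodes a sodium bicarbonate cotransporter, read 15.1, 17.4 and 16.5 FPKM in knockout libraries and 7.30, 7.06 and 9.98 FPKM in control libraries. Like Smpdl3a, both genes had narrow knockout values and were lowest in control 2. They were picked by nearness to Smpdl3a over these libraries, so these shared features go with that choice. None of the 10 genes nearest to Fabp7 or Smpdl3a passed in limma other than Cry1, beside 0.0464% of all genes called higher. Nearness includes the difference between the groups, so this count goes with how the 10 genes were picked.

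The summed level of glial markers overlapped between the groups. Because Fabp7 is a glial marker in the retina, 25 markers of Müller glia and astrocytes were set beside it, of which 9 were in the table and 16 were not analysed here. The summed level of the 9 was 105.6 to 115.0 FPKM in knockout libraries and 95.7 to 125.2 FPKM in control libraries, so the knockout range lay inside the control range. The largest part of this sum was Car2. It read 59.0, 55.3 and 68.2 FPKM in knockout libraries and 43.3, 55.2 and 64.3 FPKM in control libraries, so scarce markers count little in the sum. None was at the floor of the table in any library. Of the 8 tested, none passed in limma (1 had an unadjusted p under 0.05), 3 differences were positive, and the median was -0.05. Glul, the glutamine synthetase gene of Müller glia, read 17.4, 22.0 and 16.5 FPKM in knockout libraries and 12.6, 20.9 and 18.2 FPKM in control libraries. Rlbp1, which encodes the retinal-binding protein CRALBP of the same cells, measured 2.01 ± 0.12 FPKM in knockout cones and 2.19 ± 0.41 FPKM in control cones.

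The ratio of Fabp7 to Glul was 4.45, 2.90 and 4.62 in knockout libraries and 1.74, 1.58 and 2.04 in control libraries, with no overlap. Fabp7 was chosen for its higher knockout values and Glul overlapped between the groups, so this gap restates that choice. Car2, a carbonic anhydrase gene and the most abundant glial marker here, measured 60.8 ± 6.67 FPKM in knockout cones and 54.3 ± 10.6 FPKM in control cones. Clu, the clusterin gene, and Apoe, the apolipoprotein E gene, lay below control in all knockout libraries, as did 5.87% of all genes tested. Their log2 differences were -0.47 and -0.62 (adjusted p = 0.897 and 0.77, limma). The 13 cone markers summed to 5767 to 6846 FPKM in knockout libraries and 4208 to 7074 FPKM in control libraries, and none passed in limma (1 with an unadjusted p under 0.05). The 15 rod markers summed to 2676 to 3882 FPKM in knockout libraries and 3121 to 3868 FPKM in control libraries, and none passed in limma (0 with an unadjusted p under 0.05). Of 28 markers of other retinal cells 11 were in the table, 9 were tested and none passed in limma (1 with an unadjusted p under 0.05). Their summed level was 59.4 to 65.8 FPKM in knockout libraries and 57.0 to 83.7 FPKM in control libraries, highest in control 1. Stmn2, a neuronal stathmin gene, read 0.1, 0.1 and 0.240 FPKM in knockout libraries and 21.1, 0.195 and 0.668 FPKM in control libraries, with control 1 far above the rest. Gng13, a G protein subunit gene of ON bipolar cells, read 2.16, 1.17 and 2.05 FPKM in knockout libraries and 6.31, 2.96 and 3.56 FPKM in control libraries, with groups apart but no call (adjusted p = 0.61, limma). Control 1 was also the lowest control library for Fabp7, and the part of these markers in that value was not tested. Pecam1, another of these 11 markers, was below the limit for testing and lay the other way. It read 1.23, 1.25 and 1.30 FPKM in knockout libraries and 0.664, 0.593 and 0.812 FPKM in control libraries. Of all genes tested, 3.52% had all knockout libraries above all control libraries.

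Regulators reported for each gene outside the clock gave no call in limma, against 0.104% of all genes called. Of 12 Notch, PAX6, POU and NFI genes fixed for Fabp7 in neural progenitors, 5 were in the table and 3 were tested (0 with an unadjusted p under 0.05). Pax6 read 0.961, 1.62 and 1.06 FPKM in knockout libraries and 6.65, 0.684 and 2.22 FPKM in control libraries, and the high control value was that of control 1. For Smpdl3a, 13 LXR genes and targets were fixed, of which 11 were in the table and 10 were tested, with 3 positive differences, a median of -0.15 and 2 genes with an unadjusted p under 0.05. The smallest p was that of Apoe, which lay below control in all knockout libraries (log2 difference -0.62, adjusted p = 0.77, limma). Nr1h3, which encodes LXR alpha, read 1.81, 2.35 and 2.59 FPKM in knockout libraries and 1.23, 1.40 and 1.62 FPKM in control libraries, with groups apart but no call (adjusted p = 0.897, limma). Lpcat3, a phospholipid acyltransferase gene and LXR target, measured 1.07 ± 0.55 FPKM in knockout cones and 2.49 ± 1.03 FPKM in control cones (adjusted p = 0.78, limma), and its exons share 334 bases with those of Emg1 on the other strand. Abcg1, a sterol transporter gene and the most abundant LXR target of the list, measured 13.8 ± 3.59 FPKM in knockout cones and 15.5 ± 1.03 FPKM in control cones (adjusted p = 0.9996, limma). Pltp, also on the LXR list, was below the limit for testing. It read 1.10, 0.697 and 1.24 FPKM in knockout libraries and 0.269, 0.109 and 0.693 FPKM in control libraries, apart by a small margin. Of all genes tested, 3.52% had all knockout libraries above all control libraries and 5.87% had them below.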

How the data were processed

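The authors deposited 1 table of FPKM values, with a column for each of 6 libraries of poly(A) RNA made with a directional kit, per the labels' protocols. Per the submitters' processing notes, TopHat2 2.1.0, Cufflinks 2.2.1, HTSeq and DESeq2 were used and the build was mm10. The sources used here do not give their roles, the annotation or the strand setting. The smallest value is 0.1 FPKM. Depth is unknown, so neither counting intervals nor floors are given, and errors are the spread over libraries.

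The genotype labels gave the groups. Genes averaging 1 FPKM or more were kept (8627 tested, 1093 below), and log2(FPKM + 1) was compared with limma 3.58.1 in R 4.3.3 (variance trend, two-sided, Benjamini-Hochberg adjustment over all genes tested, threshold 0.05, no covariate). The step was tested on simulated data. Positions and exons are from GENCODE vM21 (GRCm38, the assembly of mm10), to which 9702 of 9720 gene IDs matched. Exons on the other strand also overlap those of Galc (400 bases, Gm47439), Gng13 (399, Chtf18) and Opn1sw (397, Calu). The same holds for Sphk2 (373, Rpl18) and Nr1d1 (263, Thra), and not all smaller overlaps are given. Python 3.11.15 with numpy 2.4.6, pandas 2.3.3 and matplotlib 3.10.9 made the tables and figures.

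The genes and all lists were chosen with earlier results of these data known. Genes were named from those of both families and the 1000000-base neighbourhood in the table, Nr1d1, Nr1d2, Arntl, Clock and Cry1, at most the 3 genes with the smallest p and the most abundant gene of each other list, and the 5 nearest profiles. Not all genes that this rule allows are named. Glul and Rlbp1 were added as defining glial markers, and Ice2, Gm17364, Pltp and Pecam1 were named after their values were seen. Alternatives covered the pseudocount, the filter, scaling, variance model, array weights, a block for the replicate number, and leaving out single libraries.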

Additional observations from a re-analysis of the deposited data

How the results depend on the processing

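Fabp7 kept a positive log2 difference in all 16 alternatives (1.02 to 1.39) and Smpdl3a in all 15 that gave a value (0.83 to 1.78), since a minimum mean of 5 FPKM leaves Smpdl3a out. Smpdl3a moved by more than its spread with the pseudocount, to 1.78 with 0.1 and 1.31 with 0.5, which follows from control values under 1 FPKM. Over all genes, 9 were called (4 higher, 5 lower). Array weights gave 23 (11 higher, 12 lower), and leaving out single libraries gave 6 to 13, with 1 to 5 higher and 5 to 8 lower. None of the other family genes or neighbours was called in any of these. The groups share replicate numbers, and whether same-numbered libraries were paired is not known. Their deviations from the group means had r = -0.118, -0.0853 and -0.0336 across genes. Deviations within a group of 3 sum to 0, so these r cannot show whether libraries were collected together. With the replicate number as a block, 6 genes were called, 1 of them higher and 5 lower, the log2 differences of Fabp7 and Smpdl3a were the same by construction, and the adjusted p of Cry1 was 0.23 (limma). Cry1 also missed the threshold with a pseudocount of 0.1 (adjusted p = 0.056, limma). Of the other named genes, Sphk2, Hcls1 and Igf2bp2 gained a call with array weights (adjusted p = 0.016, 0.025 and 0.016, limma; the chosen pair is given no p), and Smpd2 and Glul turned there to -0.052 and -0.018. With single libraries left out, 6 genes with differences near 0 took either sign: Smpd1 from -0.37 (without control 1) to 0.096 (without knockout 1), Smpd2 from -0.14 (control 1) to 0.35 (control 2), Arntl from -0.059 (knockout 3) to 0.17 (knockout 2), Glul from -0.074 (control 1) to 0.27 (control 2), Hsf2 from -0.021 (knockout 1) to 0.18 (knockout 3) and Lims1 from -0.082 (knockout 2) to 0.15 (knockout 1). The cause of these turns was not tested.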
